A study of Drosophila melanogaster with 4 samples.

Results

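Mitochondrial complex IV, cytochrome c oxidase, passes electrons from cytochrome c to oxygen and pumps protons across the inner membrane. Its catalytic core is made of the subunits encoded by mt:CoI, mt:CoII and mt:CoIII in mitochondrial DNA, and the remaining subunits are encoded in the nucleus and imported. CoI carries the heme a and heme a3-copper sites where oxygen is reduced, CoII carries the copper centre that accepts electrons from cytochrome c, and CoIII stabilises the core. The mitochondrial ribosome inserts the core subunits into the membrane as they are made, and assembly requires all of them.

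The reads on these 3 entries were compared in mitoribosome profiling libraries of Drosophila melanogaster third-instar larvae, which hold 34917 transcript entries, 11 of them mitochondrial mRNAs (mt-mRNAs). The members were chosen by name, with earlier results of these data known. From this experiment the paper reports less mt:CoI and mt:CoIII mRNA on the mitoribosome in the knockout. The assay sequences short RNA that co-sediments with the mitochondrial ribosome after nuclease digestion, so that reads on an mRNA measure its association with the ribosome. It does not measure the level of the mRNA, and no matched RNA libraries were analysed here. The DmAngel KO group (2 libraries) carried the genotype Angel-/-, a germline CRISPR/Cas9 deletion. The paper names a single knockout line for this experiment, so that the genotype rests on 1 line. The control group (2 libraries) carried the genotype Angel+/+ and was wDah, a white Dahomey stock. Per the paper, its fly stocks, the knockout included, had all been backcrossed to the same Wolbachia-free white Dahomey background. DmAngel is the fly homologue of the RNA phosphatase ANGEL2. Mitochondria came from whole larvae of either genotype, so the libraries mix tissues, and fewer cells of a type cannot be told apart from less ribosome-bound RNA per cell. The series' design text calls the replicates technical and the paper calls them biologically independent. If they are technical, the p-values rest on the spread between libraries and not between independent samples.

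The DmAngel KO libraries held 8175475 and 8227127 reads, against 4159707 and 1789947 in control libraries 1 and 2. The mt-mRNAs took 92.2% and 92.6% of them in DmAngel KO, against 66.6% and 73.2% in control. Transcripts of angel, the deleted gene, held 1 and 1 reads in DmAngel KO and 2 and 0 in control, too few to check the genotype. Markers of tissues and stages were compared as well. The 6 larval fat body markers together held 36971 and 23338 CPM (counts scaled to a common total of reads outside mtDNA) in DmAngel KO, against 312164 and 165484 CPM in control. Of these, Lsp2 had 3 and 0 reads in DmAngel KO and 2899 and 511 in control, while 5 of the 6 had reads in every library. The 4 muscle markers, all with reads in every library, summed to 38773 and 71173 CPM in DmAngel KO and 28683 and 65666 CPM in control. Most of this sum was bt, at 32565 and 68467 CPM in DmAngel KO and 26947 and 63651 CPM in control. Mhc did not overlap between the genotypes, at 5684 and 2365 CPM in DmAngel KO and 1531 and 1595 CPM in control, while bt, up and wupA did. The 4 midgut markers held 8193 and 5268 CPM in DmAngel KO and 12195 and 8701 in control. Of these only Jon65Aiv did not overlap, at 3065 and 2639 CPM in DmAngel KO and 7280 and 5496 CPM in control, while alphaTry, betaTry and Jon99Cii did. With 2 against 2 libraries, an unchanged entry lacks overlap with a probability of 0.333. Mhc and Jon65Aiv, 1 marker of 4 in either set, therefore show no difference of muscle or midgut. The 3 yolk protein genes, markers of adult females, held 24.7 and 19.3 CPM in DmAngel KO and 275 and 158 in control. The part of these markers in the results below was not tested.

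All 3 members are transcribed from the plus strand of mtDNA and lie close together. In the annotation BDGP6.54, coding sequence of mt:CoI spans bases 1474 to 3009 of the mitochondrial genome (1536 bases), mt:CoII bases 3083 to 3767 (685 bases) and mt:CoIII bases 4736 to 5524 (789 bases). A tRNA gene sits between mt:CoI and mt:CoII, 2 bases after the mt:CoI end and 5 bases before the mt:CoII start, and mt:tRNA:Lys-CTT follows mt:CoII with no base between them. No tRNA separates mt:CoIII from mt:ATPase8_6, the bicistronic mRNA of the ATP synthase subunits upstream of it, and the 2 coding regions share 1 base. Downstream, mt:tRNA:Gly-TCC begins after 18 bases.

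Oligos that the study designed for mt:CoI and mt:CoIII are shown because they are the member sequences at hand. They are short, and do not show the base make-up of the whole mRNAs. They are primers of a poly(A) tail length assay, in which the gene-specific primer reads in the direction of the transcript and a linker primes from its 3′ end. Capitals mark G, since RNase T1, the nuclease used to make the footprints, cuts single-stranded RNA after G.
COX1_Cold: GcttacacaacatGaaatattGtatca
COX1_Hot: tactccGccaGctGaacata
COX3_Cold: acGacatttaaataatcacttctcaaaa
COX3_Hot: tcacaatttactGatGaGGaGGa
The mt:CoI primers hold 3 G in 27 bases and 3 G in 20 bases, and the mt:CoIII primers 1 G in 28 bases and 6 G in 23 bases. Within these primers G was unevenly spread, with a long run that lacks it in COX3_Cold and a cluster at the end of COX3_Hot. The same sequences were digested in every library, and an effect of the cutting sites on the levels of single entries was not tested. The primers were not placed on a genome sequence here.

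The composition of the complex IV reads differed between the genotypes. Per base of coding sequence, mt:CoII was the highest of the 3 entries in both DmAngel KO libraries and the lowest in both control libraries. mt:CoII held 915 and 896 reads per base in DmAngel KO, against 358 and 177 in control. mt:CoIII held 692 and 653 reads per base in DmAngel KO and 520 and 276 in control. mt:CoI held 397 and 443 reads per base in DmAngel KO and 409 and 210 in control, the only one of the 3 whose libraries overlapped. Among all 11 mt-mRNAs only mt:CoI and mt:ND2 overlapped on this measure, so a lack of overlap was not particular to mt:CoII and mt:CoIII. These levels carry the different depths of the libraries, which were greater in DmAngel KO. Within each library the order was the same for both replicates of a genotype, mt:CoII, mt:CoIII, mt:CoI in DmAngel KO and mt:CoIII, mt:CoI, mt:CoII in control.

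**Figure D1:**
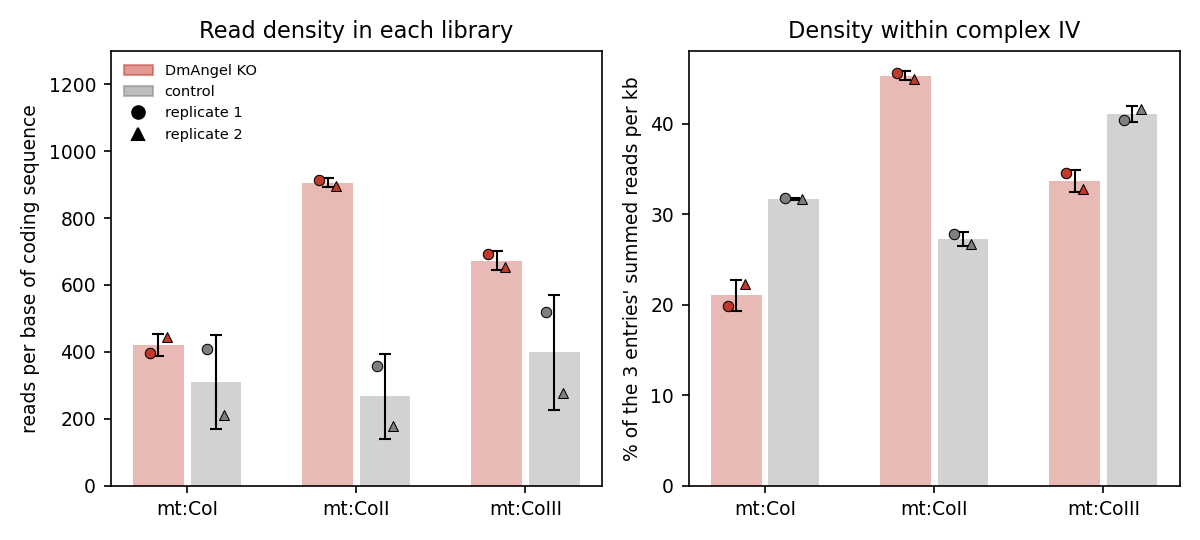
Reads per base of coding sequence (left) and each entry's percentage of the 3 entries' summed reads per kb (right) for mt:CoI, mt:CoII and mt:CoIII. Points are libraries (circle replicate 1, triangle replicate 2), bars are means and error bars SD (n = 2), with DmAngel KO in red left of control in grey. mt:CoII took 45.6% and 45.0% of the summed density in DmAngel KO, against 27.8% and 26.7% in control.

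As a share of the summed reads per kb of the 3 entries, which does not depend on depth, mt:CoII stood at 45.3% ± 0.459 in DmAngel KO and 27.3% ± 0.775 in control (SD, n = 2 each). mt:CoI stood at 21.0% ± 1.71 in DmAngel KO and 31.7% ± 0.113 in control. mt:CoIII stood at 33.7% ± 1.25 in DmAngel KO and 41.0% ± 0.888 in control. In control, mt:CoI and mt:CoII were the closest neighbours, and mt:CoI was still above mt:CoII in both libraries by more than the spread between replicates. In DmAngel KO all neighbours were further apart. Of the reads themselves, not divided by length, mt:CoI took 34.2% and 37.6% of the 3 entries' reads in DmAngel KO and 49.0% and 48.7% in control. mt:CoII took 35.1% and 33.9% in DmAngel KO and 19.1% and 18.3% in control, and mt:CoIII 30.6% and 28.5% in DmAngel KO and 32.0% and 32.9% in control. The largest 95% Wilson interval of such a share reached 0.120 points to either side. This covers counting error only, as PCR copies are not independent molecules, and it is below the spread between replicates. Among all 11 mt-mRNAs, mt:CoII ranked 3 in both DmAngel KO libraries and 5 in both control libraries by reads per kb. mt:CoI ranked 5 in both DmAngel KO libraries and 3 in both control libraries. mt:CoIII ranked 4 in both DmAngel KO libraries, against 2 and 1 in control.

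A ratio of 2 entries within a library depends on neither its depth nor the other mRNAs, so the ratios are the most direct comparison of the 3 core subunits. mt:CoI and mt:CoIII both fell relative to mt:CoII in DmAngel KO. There were 0.974 and 1.11 reads of mt:CoI for each read of mt:CoII in DmAngel KO, against 2.57 and 2.66 in control. Thus mt:CoI and mt:CoII had near equal reads in DmAngel KO, while mt:CoI was in clear excess in both controls, and the genotypes did not overlap. For mt:CoIII the ratio to mt:CoII was 0.872 and 0.839 in DmAngel KO and 1.67 and 1.80 in control, again without overlap. Per kb of coding sequence, mt:CoI to mt:CoII was 0.434 and 0.494 in DmAngel KO and 1.14 and 1.18 in control, and mt:CoIII to mt:CoII was 0.757 and 0.729 in DmAngel KO and 1.45 and 1.56 in control. The side of 1 on which both ratios lay differed between the genotypes on this per-length scale.

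In edgeR's quasi-likelihood test with the mt:CoII reads as library size, mt:CoI fell 2.51-fold in DmAngel KO (log2 fold change -1.33, SE 0.15, 95% interval -1.66 to -0.99, adjusted p = 2.31e-05). mt:CoIII fell 2.03-fold in the same fit (log2 fold change -1.02, SE 0.13, 95% interval -1.31 to -0.73, adjusted p = 4.58e-05). Of the 10 mt-mRNAs tested against mt:CoII, 50% passed as lower and 10% as higher, so that a fall relative to mt:CoII was shared with other entries. Both calls held without each library in turn. The call was lost for both when the dispersion was estimated over all entries without a filter, at an adjusted p of 0.0836 for mt:CoI and 0.108 for mt:CoIII with the same fold changes. An exact permutation test of a ratio over 2 against 2 libraries gave p = 0.333, the smallest two-sided value that this design allows.

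The third ratio, mt:CoI to mt:CoIII, was 1.12 and 1.32 in DmAngel KO and 1.53 and 1.48 in control. The libraries did not overlap, but the difference did not pass the test. Set against mt:CoIII reads, mt:CoI changed by a log2 fold of -0.30 (SE 0.13, 95% interval -0.65 to 0.036, edgeR adjusted p = 0.0868), so falls of up to 0.65 on the log2 scale are within the interval. In that fit mt:CoII rose (log2 fold change 1.02, SE 0.10, adjusted p = 0.000625), and 40% of the 10 entries passed as higher. That count, 4 of 10, was 7 with DESeq2 and 1 with the dispersion of all entries without a filter.

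**Figure D2:**
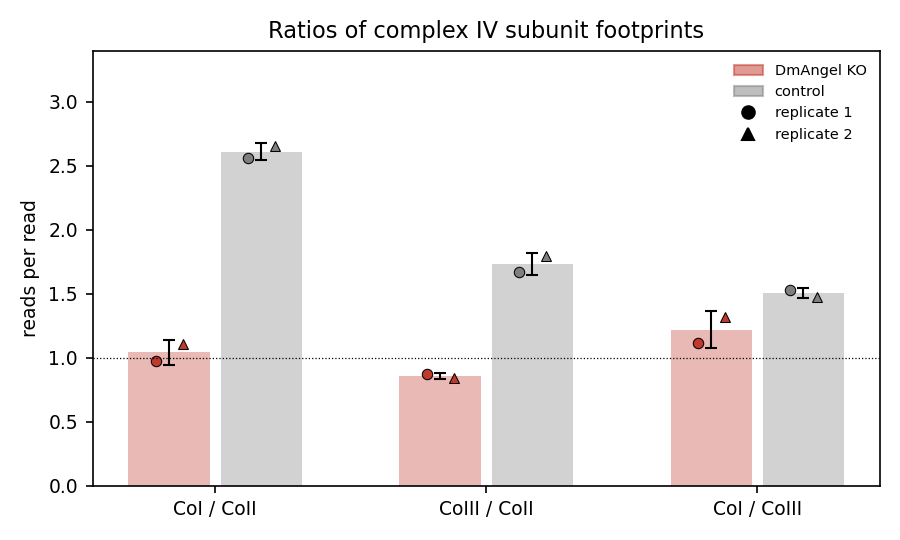
Reads of each numerator per read of its denominator, for the 3 ratios among mt:CoI, mt:CoII and mt:CoIII. Points are libraries (circle replicate 1, triangle replicate 2), bars are means and error bars SD (n = 2), DmAngel KO in red left of control in grey, with a dotted line at equal reads. Both ratios to mt:CoII were lower in DmAngel KO (means 1.04 and 0.856) than in control (means 2.61 and 1.74), while CoI / CoIII differed less (1.22 in DmAngel KO, 1.51 in control).

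Next, each member was expressed as a share of the mt-mRNA reads. mt:Cyt-b, the mtDNA-encoded subunit of complex III, held 45.9% and 51.7% of all mt-mRNA reads in DmAngel KO, against 14.7% and 17.5% in control. A share falls where another entry takes more of its total, so the share of the reads on the 10 mt-mRNAs other than mt:Cyt-b was taken first. mt:CoI held 15.0% and 18.5% of these reads in DmAngel KO, against 26.6% and 29.8% in control. mt:CoII held 15.4% and 16.7% in DmAngel KO and 10.4% and 11.2% in control. mt:CoIII held 13.4% and 14.0% in DmAngel KO and 17.4% and 20.2% in control. For each of the 3 the genotypes did not overlap, with mt:CoII higher and the other members lower in DmAngel KO, at p = 0.333 by the exact permutation test in each case. A lack of overlap was common on this share. It also held for mt:ATPase8_6, mt:ND1, mt:ND3 and mt:ND4_4L, while mt:ND2, mt:ND5 and mt:ND6 overlapped.

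In the edgeR fit of these shares mt:CoII rose (log2 fold change 0.57, SE 0.19, 95% interval 0.18 to 0.96, adjusted p = 0.0157). mt:CoI fell (log2 fold change -0.75, SE 0.21, 95% interval -1.20 to -0.31, adjusted p = 0.00701). mt:CoIII did not pass (log2 fold change -0.45, SE 0.19, 95% interval -0.86 to -0.048, unadjusted p = 0.0304, adjusted p = 0.0608). Of the 10 entries, 30% passed as higher and 10% as lower, which makes mt:CoI the single entry to pass as lower. These calls rested on few libraries. That of mt:CoI was lost without DmAngel KO library 1 (log2 fold change -0.61, adjusted p = 0.262), without DmAngel KO library 2 (-0.92, adjusted p = 0.143), without control library 1 (-0.83, adjusted p = 0.0525) and without control library 2 (-0.67, adjusted p = 0.108). That of mt:CoII was lost without DmAngel KO library 1 (0.63, adjusted p = 0.194) or library 2 (0.51, adjusted p = 0.244), and mt:CoIII passed without control library 1 (-0.56, adjusted p = 0.0397).

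With mt:Cyt-b kept in the total, mt:CoI held 8.10% and 8.93% of all mt-mRNA reads in DmAngel KO and 22.7% and 24.6% in control. mt:CoIII held 7.25% and 6.76% in DmAngel KO and 14.8% and 16.7% in control. mt:CoII held 8.31% and 8.06% in DmAngel KO and 8.85% and 9.27% in control. In reads not divided by length, the 3 subunits were close to each other in DmAngel KO and spread over a wide range in control. This pattern was not seen in shares of the summed reads per kb of all mt-mRNAs. There mt:CoI took 5.21% and 5.89% in DmAngel KO and 14.2% and 15.6% in control. mt:CoII took 12.0% and 11.9% in DmAngel KO and 12.4% and 13.1% in control. mt:CoIII took 9.08% and 8.68% in DmAngel KO and 18.0% and 20.5% in control. As a share of all mt-mRNA reads, mt:CoI fell (log2 fold change -1.47, SE 0.15, edgeR adjusted p = 4.76e-06), as did mt:CoIII (log2 fold change -1.17, SE 0.13, adjusted p = 6.45e-06). The share of mt:CoII did not pass (log2 fold change -0.15, SE 0.11, 95% interval -0.39 to 0.10, adjusted p = 0.268). Thus 2 of the 3 members passed as lower, where 45.5% of the 11 entries did, and 9.09% (mt:Cyt-b alone) passed as higher. Against mt:Cyt-b itself there were 176 and 173 mt:CoI reads per 1000 mt:Cyt-b reads in DmAngel KO, and 1542 and 1407 in control. The same measure was 181 and 156 for mt:CoII in DmAngel KO and 601 and 529 in control. For mt:CoIII it was 158 and 131 in DmAngel KO and 1006 and 951 in control.

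**Figure D3:**
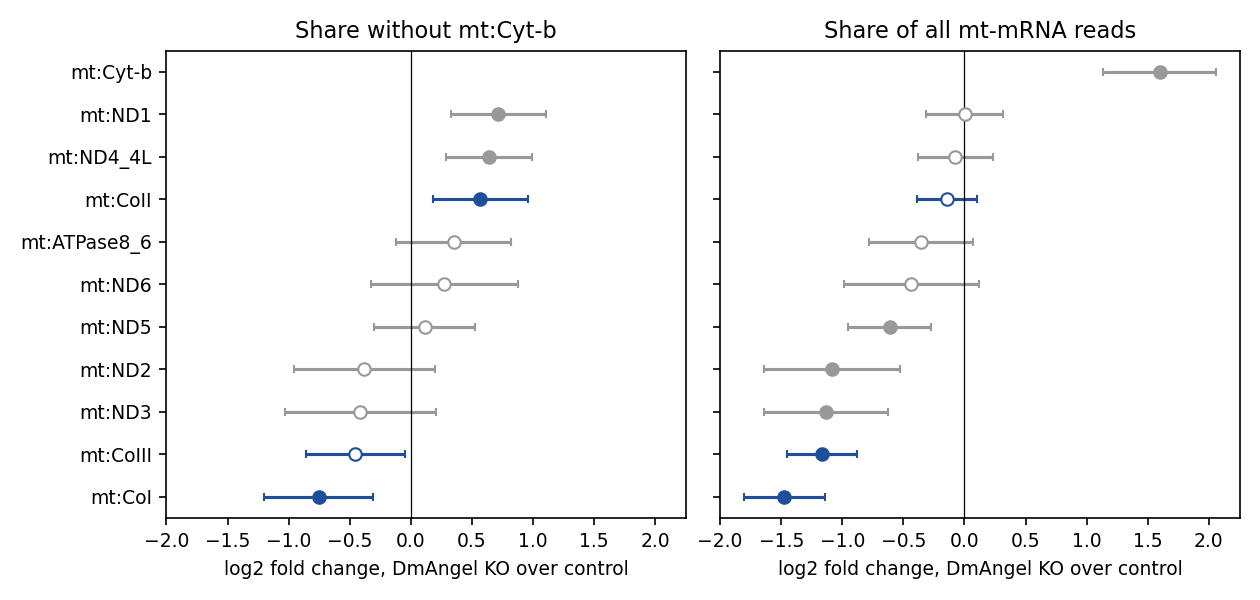
Log2 fold change of each mt-mRNA, DmAngel KO over control, as a share of the mt-mRNA reads other than mt:Cyt-b (left) and of all mt-mRNA reads (right), from edgeR with 95% intervals. Filled points passed an adjusted p of 0.05, and the complex IV entries are in blue. mt:CoI and mt:CoIII were the lowest of the entries in both panels, and mt:CoII stood near mt:ND1 and mt:ND4_4L.

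Added together, the 3 entries took 43.7% and 49.2% of the mt-mRNA reads other than mt:Cyt-b in DmAngel KO, against 54.3% and 61.3% in control. Of all mt-mRNA reads they took 23.7% and 23.7% in DmAngel KO, against 46.3% and 50.5% in control. Of all reads in the library they took 21.8% and 22.0% in DmAngel KO and 30.8% and 37.0% in control. The sum is given without a test.

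The direction of a single member depended on what its reads were set against. A change of library size moves all entries by nearly the same amount, so the distances between members and their order are fixed by the fit and carry no further information. With the reads outside mtDNA as library size all 3 members were higher in DmAngel KO, at log2 fold changes of 1.02 for mt:CoI, 2.35 for mt:CoII and 1.32 for mt:CoIII, when the median mt-mRNA other than mt:Cyt-b stood at 1.99. The fat body markers given above are among those reads. With the mitochondrial rRNA reads as library size the values were -0.34 for mt:CoI, 1.01 for mt:CoII and 0.0034 for mt:CoIII, and none passed. With the mt-tRNA reads other than mt:tRNA-Met they were -1.46 for mt:CoI, -0.12 for mt:CoII and -1.14 for mt:CoIII.

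**Figure D4:**
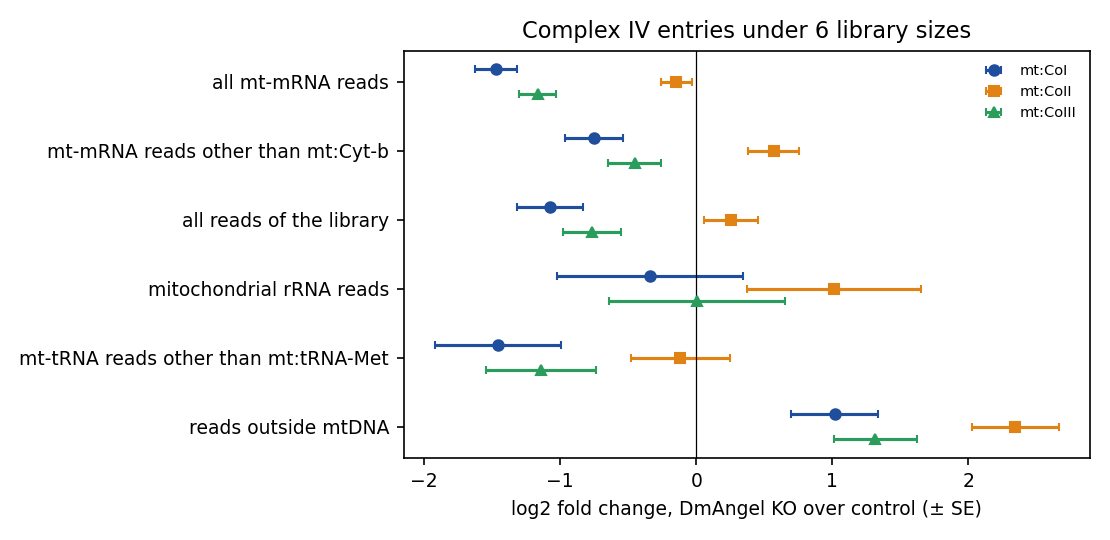
Log2 fold change, DmAngel KO over control, of mt:CoI (circles), mt:CoII (squares) and mt:CoIII (triangles) under 6 library sizes, with SE from edgeR. A change of library size shifts the 3 entries together, so the picture shows only where each lies relative to 0, with mt:CoII at -0.15 against all mt-mRNA reads and at 2.35 against reads outside mtDNA.

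The mt-mRNAs most like each member were found from the log2 share without mt:Cyt-b, centred over the 4 libraries, by the root mean square difference over these libraries among 9 candidates. mt:CoI lay nearest to mt:ND3 (0.173) and mt:CoIII (0.178). mt:CoIII lay nearest to mt:ND3 (0.0967) and mt:CoI (0.178). Both have low values in the DmAngel KO libraries and high values in control. mt:CoII had the opposite profile and lay nearest to mt:ND1 (0.0890) and mt:ND4_4L (0.147), with mt:CoI the farthest of the 9 at 0.668. mt:ND1, mt:ND3 and mt:ND4_4L encode subunits of complex I, so that the nearest profile of every member was outside complex IV. Most of the 9 candidates lie outside it, and for mt:CoI the entries mt:ND3 and mt:CoIII were nearly tied. The 10 entries of a library share the denominator of their shares, and the likeness is a description.

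**Figure D5:**
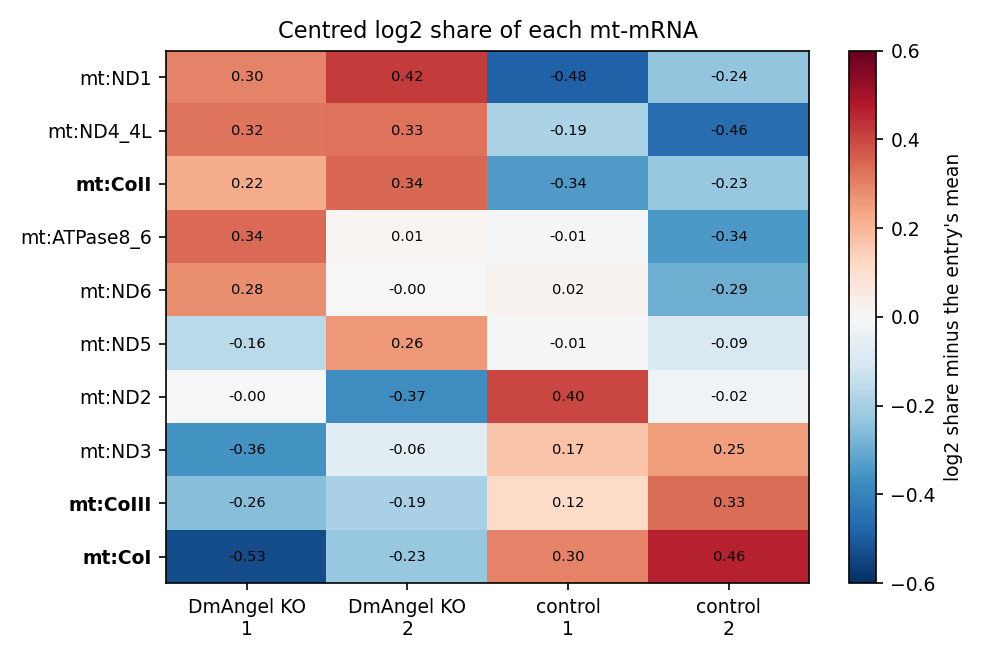
Log2 share of the mt-mRNA reads other than mt:Cyt-b for each of the 10 entries (down) in the 4 libraries (across, DmAngel KO left of control), minus the entry's mean over the libraries. mt:CoI reached -0.53 and -0.23 in DmAngel KO and 0.30 and 0.46 in control, whereas mt:CoII reached 0.22 and 0.34 in DmAngel KO and -0.34 and -0.23 in control.

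mt:ND1, the entry nearest to mt:CoII, held 0.382 and 0.383 reads per mt:CoII read in DmAngel KO and 0.329 and 0.361 in control (log2 fold change 0.15, SE 0.15, edgeR adjusted p = 0.385). The mt:ND1 libraries did not overlap. mt:ND4_4L held 0.486 and 0.449 reads per mt:CoII read in DmAngel KO and 0.505 and 0.388 in control, and its libraries overlapped (log2 fold change 0.07, SE 0.16, adjusted p = 0.684). The 95% intervals of these log2 changes, -0.19 to 0.48 for mt:ND1 and -0.29 to 0.42 for mt:ND4_4L, leave room for a change in either direction. Relative to mt:CoIII, mt:ND3 changed by 0.03 (SE 0.23, 95% interval -0.57 to 0.63, adjusted p = 0.892). mt:ND1, mt:ND4_4L and mt:ND3 were picked for their likeness to the members in these same libraries. A small change was thus built into the choice, and the p-values of these ratios cannot test it.

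The entries beside the members on mtDNA were examined as well. mt:ATPase8_6, directly upstream of mt:CoIII, had 2.52 and 1.92 reads per mt:CoIII read in DmAngel KO, against 1.53 and 1.04 in control. The genotypes did not overlap, but the ratio just missed the threshold (log2 fold change 0.79, SE 0.25, 95% interval 0.14 to 1.44, edgeR adjusted p = 0.0530). This outcome depended on the fit. The same change passed with DESeq2 (0.79, adjusted p = 0.00243) and with the dispersion of all filtered entries (0.79, adjusted p = 0.0358), and it passed without DmAngel KO library 2 (0.97, adjusted p = 0.0115) and without control library 1 (1.09, adjusted p = 0.00943). It did not pass with the dispersion of unfiltered entries (0.79, adjusted p = 0.503). In the main fit against mt:CoIII, the log2 fold changes of the entries ran from -0.30 (mt:CoI) to 2.77 (mt:Cyt-b), with mt:ND6 at 0.71 and mt:CoII at 1.02. The rise was thus not particular to the entry beside mt:CoIII. The shared base and the lack of a tRNA at this junction mean that reads may cross it. Such reads could be counted on either entry or on neither, since the authors aligned to separate entries with added tails. The counting method is not given in the sources used here. Relative to mt:CoII, mt:ATPase8_6 had 2.20 and 1.61 reads per read in DmAngel KO and 2.56 and 1.87 in control, which overlapped.

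The tRNA between mt:CoI and mt:CoII, mt:tRNA:Leu-TAA, had 13.4 and 10.2 reads per 1000 mt:CoI reads in DmAngel KO, against 5.03 and 2.15 in control. Per 1000 mt:CoII reads it had 13.0 and 11.3 in DmAngel KO and 12.9 and 5.72 in control, which overlapped. The difference between these measures is the ratio of mt:CoI to mt:CoII given above, and carries nothing further on the tRNA. mt:tRNA:Lys-CTT, after mt:CoII, had 1.26 and 4.36 reads per 1000 mt:CoII reads in DmAngel KO and 1.78 and 5.08 in control. mt:tRNA:Gly-TCC, after mt:CoIII, had 5.05 and 3.23 reads per 1000 mt:CoIII reads in DmAngel KO and 4.12 and 1.55 in control. Both overlapped between the genotypes. mt:tRNA:Tyr-GTA, on the minus strand 5 bases before mt:CoI, had 3.52 and 4.20 reads per 1000 mt:CoI reads in DmAngel KO and 1.92 and 1.17 in control. Scaled to all reads of the library it overlapped, at 262 and 347 CPM in DmAngel KO and 290 and 211 CPM in control. These tRNA values are given without a test.

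Complex IV also needs nuclear-encoded subunits, which are made on cytosolic ribosomes, and the reads on their mRNAs were few in these mitochondrial preparations. All 17 listed nuclear subunit symbols were found, on 42 entries, and 9 entries of 6 genes passed the filter on low counts and were tested. None of the 9 passed in either direction in edgeR or in DESeq2, where 4.65% of all 3270 entries outside mtDNA passed as higher and 6.21% as lower in edgeR. Their median log2 fold change was 0.38 (range -0.23 to 1.30), beside -0.018 over all entries tested. Several of the 9 are entries of the 1 gene COX4. With the bsf entry described below included, the median of the 10 listed entries was 0.44, and it was -0.040 without control library 1. The entry with the most reads, FBtr0081300 of COX4, the largest nuclear subunit and a regulator of the enzyme, had 17 and 25 reads in DmAngel KO and 25 and 13 in control (log2 fold change 0.28, SE 0.48, edgeR adjusted p = 0.728). Another COX4 entry, FBtr0081301, named here after its values were seen, was the 1 entry with an unadjusted p under 0.05. It had 23 and 20 reads in DmAngel KO and 18 and 3 in control (log2 fold change 1.30, SE 0.48, edgeR adjusted p = 0.114). COX4 isoforms share most of their sequence, and how shared reads were assigned to them is not stated.

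Assembly factors and mt-mRNA binding proteins were fewer still. Of 19 listed symbols 12 were found, on 16 entries, and 1 entry was tested. This was bsf, a mitochondrial RNA-binding protein of the pentatricopeptide family, with 15 and 24 reads in DmAngel KO and 25 and 4 in control (log2 fold change 0.75, SE 0.53, 95% interval -0.45 to 1.94, edgeR adjusted p = 0.384). The remaining listed entries did not pass the filter on low counts and were not tested.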

How the data were processed

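Per the labels and the paper, mitochondrial lysates were digested with RNase T1 and run on a sucrose gradient, and small RNA libraries were made from its pooled monosome fractions. The authors merged and trimmed the read pairs with BBMerge and BBDuk, and aligned them with Bowtie2 to Ensembl transcripts in which the mitochondrial entries had been edited (bicistronic mRNAs merged, UTRs added to some, mt:CoIII among them, and a poly(A) tail of 30 bases on each mRNA). The submitters' processing notes name BDGP6, Bowtie2 and bedtools. The deposited values are raw counts of reads per entry, and the way they were counted is not given in the sources used here.

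Counts were tested with edgeR 4.0.16 in R 4.3.3 (glmQLFit, glmQLFTest, no replicate block, Benjamini-Hochberg adjustment, threshold 0.05). The library size was the sum over the 10 mt-mRNAs other than mt:Cyt-b, the sum over all 11, or the reads of mt:CoII or mt:CoIII, which takes that denominator as fixed. Adjustment was over the entries of each fit. Entries outside mtDNA were filtered with filterByExpr and scaled with TMM. DESeq2 1.42.0 and exact permutation tests (SciPy 1.17.1) were the other tests, and the fits were tested on simulated data. Coding lengths and positions came from BDGP6.54 (Ensembl 115), by name, and are printed for that annotation only. The edited entries are longer than the coding sequence, so reads on UTRs and tails count in the reads per kb.

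The members and lists were chosen with earlier results of these data known. Named genes were the members, mt:Cyt-b, the 2 mt-mRNAs nearest to each member, the neighbours on mtDNA and, of the nuclear lists, entries past the threshold and the 2 with the most reads. Replicates of a genotype did not hold the same counts (chi-square over the mt-mRNAs 111517 in DmAngel KO and 24765.7 in control, 10 degrees of freedom), so no library was a file deposited again. At this depth the statistic covers counting error only and does not tell technical from biological replicates. Intervals of shares are 95% Wilson intervals. Alternatives were another tool, dispersion, scaling, total and filter, the replicate block and each library left out. No genome or protein sequence was used.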

Additional observations from a re-analysis of the deposited data

How the results depend on the processing

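Depth limits the nuclear lists more than the members. The ratio of mt:CoI to mt:CoII kept its direction under all 8 alternatives and its call under 7, and that of mt:CoIII to mt:CoII likewise. Where the dispersion was estimated over all entries without a filter, the ratios stood at -1.33 and -1.02 without a call, and the shares of all mt-mRNA reads at -1.47 (mt:CoI, adjusted p = 0.0613) and -1.17 (mt:CoIII, adjusted p = 0.0863). Without each library in turn, mt:CoI to mt:CoII ranged over -1.42 to -1.24, mt:CoIII to mt:CoII over -1.07 to -0.97 and mt:CoI to mt:CoIII over -0.43 to -0.19, the last without a call in any of its 8 alternatives. Values are log2 fold changes of DmAngel KO over control, and where no construction shows it the cause was not tested.

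The shares depended on scaling. For the share without mt:Cyt-b, mt:CoI lost its call with the unfiltered dispersion (-0.75, adjusted p = 0.535), with mitochondrial rRNA reads (-0.34) and with mt-tRNA reads other than mt:tRNA-Met (-1.46, adjusted p = 0.0503), and turned to 1.02 with reads outside mtDNA. mt:CoII lost its call with the dispersion of filtered (0.57, adjusted p = 0.128) or all entries (0.57, adjusted p = 0.696), TMM factors (0.42), all reads (0.26) and mitochondrial rRNA reads (1.01), and turned to -0.12 with mt-tRNA reads, as mt:ND4_4L did (-0.014). mt:CoIII passed with DESeq2 (-0.45, adjusted p = 0.0141), its median-of-ratios size factors (-0.59), all reads (-0.77) and, in a fit added after seeing the data, with mt:Cyt-b kept among the entries fitted (-0.45, adjusted p = 0.0420), and turned to 1.32 with reads outside mtDNA and 0.0034 with mitochondrial rRNA reads. Without each library, mt:CoI ranged over -0.92 to -0.61, mt:CoII over 0.51 to 0.63 and mt:CoIII over -0.56 to -0.34.

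For the share of all mt-mRNA reads, mt:CoI and mt:CoIII again turned to 1.02 and 1.32 with reads outside mtDNA, and stood at -0.34 and 0.0034 with mitochondrial rRNA reads, without a call. mt:CoII turned to 0.51 (TMM factors, adjusted p = 0.0136), 0.33 (median-of-ratios size factors), 0.26 (all reads), 2.35 (reads outside mtDNA) and 1.01 (mitochondrial rRNA reads). Without each library the ranges were -1.55 to -1.41 for mt:CoI, -0.18 to -0.11 for mt:CoII and -1.25 to -1.08 for mt:CoIII.

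Same-numbered libraries deviated together over the 10 mt-mRNAs (correlation 0.74), with 2 pairs. The paper describes 2 independent profiling experiments and a parallel preparation of control and knockout samples. Whether same-numbered libraries came from the same experiment is not stated, and the main fits left such a pairing out. With the replicate block, the share of mt:CoIII passed (-0.45, adjusted p = 0.0175) and the calls without mt:Cyt-b were 5 higher and 4 lower, beside 3 and 1. The block changed no other call of a member, but mt:ATPase8_6 to mt:CoIII passed (0.80, adjusted p = 0.00227) and 7 entries passed as higher against mt:CoIII, beside 4. Calls without mt:Cyt-b were otherwise 0 higher with either other dispersion, all reads, mitochondrial rRNA or mt-tRNA reads, and 10 with reads outside mtDNA. Lower calls numbered 3 with DESeq2, 4 with median-of-ratios size factors or all reads, 2 with mt:Cyt-b kept, and 0 with the unfiltered dispersion or with reads outside mtDNA, of mitochondrial rRNA or of mt-tRNA. Without each library they ranged over 0 to 3 higher and 0 to 1 lower. For all mt-mRNA reads, main calls were 1 higher and 5 lower, against 0 and 0 (unfiltered dispersion), 4 and 2 (TMM factors), 11 and 0 (reads outside mtDNA), 0 lower (mitochondrial rRNA reads) and 2 to 5 lower without each library, with 2 without control library 1. Against mt:CoII, 2 to 3 entries stayed lower and 0 to 1 higher without each library, and 0 passed either way with the unfiltered dispersion, beside 5 and 1.

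Per kb, with the poly(A) tail in the length, mt:CoI took 32.2% of the complex IV density in control, beside 31.7%. Without TMM factors, 1 listed nuclear entry passed as higher. Entries outside mtDNA passed as higher or lower in 152 and 203 cases, against 309 and 430 with the replicate block, 86 and 178 with DESeq2, 567 and 138 without TMM factors, and 55 to 110 and 106 to 234 without each library.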
